A study of Arabidopsis thaliana with 6 samples.

Results

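The 280 transcripts described here are RNAs that the authors' files list without an Arabidopsis locus code. Their identifiers start with TCONS_ or Novel_, and each averaged at least 2 FPKM (fragments scaled to transcript length and to the mapped fragments of the library) in at least 1 of 2 groups of libraries. The files list 767 such assembled transcripts among 36104 transcript rows. Of 458 with the prefix TCONS_, 178 met the level, and of 309 with the prefix Novel_, 102 did. The transcripts were chosen by these measured levels, so the levels themselves are a description. RNA came from whole seedlings of the Col-0 accession of Arabidopsis thaliana, harvested 5 days into growth on plates at 23 °C with days of 16 h and nights of 8 h. The 3 libraries of fip37-4 LEC1:FIP37 carry the fip37-4 allele and a transgene that expresses FIP37 under the promoter of LEC1, a gene active in the embryo, and the 3 libraries of wild-type carry neither. The comparison asks how the transcriptome of seedlings whose FIP37 comes from an embryo promoter differs from that of wild-type. Whether replicates are separate plates or sowings is not in the labels. The p-values therefore reflect only how far these libraries scatter, which may be technical.

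A transcript assembler joins aligned fragments into transcripts, which can include some that the gene annotation does not hold. TCONS_ is the prefix that the Cufflinks tools give to assembled transcripts. The labels say that mRNA and long non-coding RNA were measured, but they do not say what sets the Novel_ identifiers apart from the TCONS_ ones. In plants, RNA outside annotated genes includes long intergenic and antisense RNAs, precursors of small RNAs, structured RNAs of the ribosome, spliceosome and signal recognition particle, and stretches of transcribed transposons. Depletion of ribosomal RNA, which was used here in place of selection for poly(A) tails, keeps RNAs that lack a tail. FIP37 belongs to the enzyme complex that places N6-methyladenosine on mRNA, a mark that affects the stability of RNAs that carry it. The files give neither sequence nor position for these transcripts, so their class, strand and overlap with genes are unknown here, and those that overlap a gene or each other may share its fragments.

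FIP37 (AT3G54170) was at 80.6, 65.0 and 67.5 FPKM in fip37-4 LEC1:FIP37 and at 8.99, 9.03 and 8.96 FPKM in wild-type. Transgene and endogenous transcripts are not separated in this value, so it is no check of a loss of FIP37. Markers of green tissue, root and shoot meristem were present in both groups, except PLT1 of the root tip, which stayed at or under 0.194 FPKM, and 3 pollen and flower genes stayed at or under 0.239 FPKM. Organelle genes held 60.1%, 57.5% and 56.9% of the summed FPKM in fip37-4 LEC1:FIP37 and 51.2%, 50.7% and 50.8% in wild-type. The part of these differences in the results that follow was not tested.

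The assembled transcripts spanned a very wide range of levels, and TCONS_00217531 and Novel_000265 held nearly all of their FPKM. The median transcript averaged 3.49 FPKM over the 6 libraries, 188 of the 280 averaged under 5 FPKM, and 8 averaged at least 100 FPKM. All 280 together held 1.78%, 3.96% and 3.78% of the summed FPKM in fip37-4 LEC1:FIP37, against 7.39%, 7.25% and 7.96% in wild-type. The 278 transcripts other than TCONS_00217531 and Novel_000265 held 0.242%, 0.311% and 0.324% in fip37-4 LEC1:FIP37 and 0.285%, 0.321% and 0.271% in wild-type, and these ranges overlap. By prefix, TCONS_ transcripts held 1.53 ± 0.501% in fip37-4 LEC1:FIP37 and 5.30 ± 0.371% in wild-type (SD, n = 3 each), a difference that TCONS_00217531 made almost alone. Novel_ transcripts held 1.64 ± 0.714% in fip37-4 LEC1:FIP37 and 2.24 ± 0.0520% in wild-type. Without fip37-4 LEC1:FIP37 replicate 1 the difference of the Novel_ share shrank to -0.191 percentage points, against -0.599 with it.

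TCONS_00217531 had the highest FPKM of the 280. FPKM divides by transcript length, which the files do not give for these transcripts, so how far a short length sets the very high values of TCONS_00217531 and Novel_000265 and their share of summed FPKM is unknown here. TCONS_00217531 was lower in every fip37-4 LEC1:FIP37 library than in any of wild-type. It was at 9897, 21746 and 21344 FPKM in fip37-4 LEC1:FIP37, against 60362, 55160.5 and 66898 FPKM in wild-type. The groups lay far apart, and replicate 1 was the lowest library of all. The log2 fold change of TCONS_00217531 was -1.87 ± 0.315 (SE; tested by limma with Benjamini-Hochberg adjustment over all features, adjusted p = 0.00293), and without fip37-4 LEC1:FIP37 replicate 1 it was -1.49 (limma adjusted p = 1e-05). Novel_000265, the next highest, was at 9135, 27460.4 and 24329.7 FPKM in fip37-4 LEC1:FIP37 and at 25049, 25178 and 26361 FPKM in wild-type. Replicates 2 and 3 of fip37-4 LEC1:FIP37 lay close to wild-type and replicate 1 far below. Its log2 fold change was -0.48 ± 0.441 (limma adjusted p = 0.392), and without that replicate 0.02 (limma adjusted p = 0.777).

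**Figure D1:**
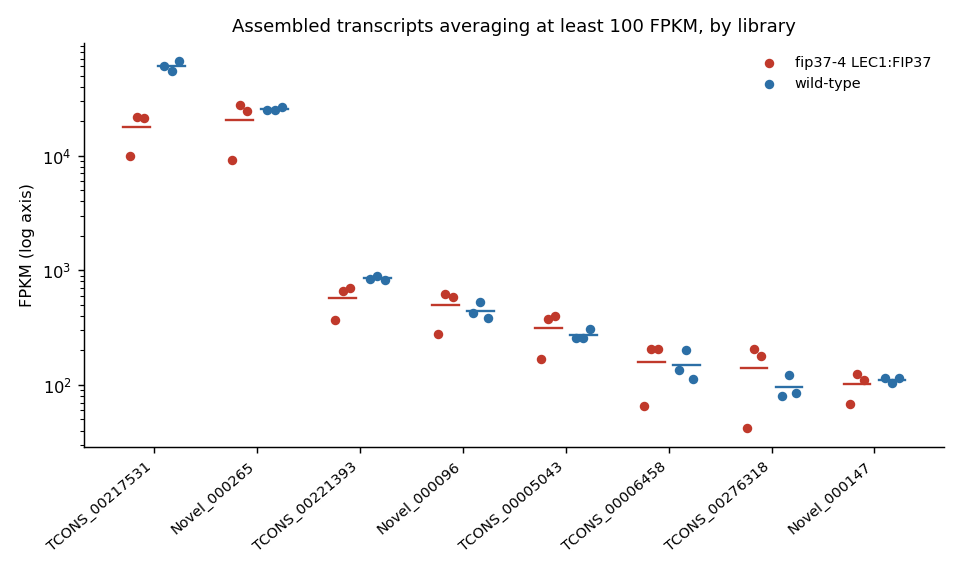
FPKM (log axis) of the 8 assembled transcripts that averaged at least 100 FPKM, with a point for each library in the order of its replicate number and a line at the group mean; fip37-4 LEC1:FIP37 stands left of wild-type. Replicate 1 is the lowest of the 3 fip37-4 LEC1:FIP37 points in all 8, and the lowest in 69.9% of annotated nuclear loci of at least 100 FPKM.

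None of the other 6 abundant transcripts passed the test with all 6 libraries. TCONS_00221393 was at 367, 666 and 703 FPKM in fip37-4 LEC1:FIP37, against 841, 898 and 815 FPKM in wild-type. The groups did not overlap, but the test depended on single libraries. The difference was -0.61 on the log2 scale with all 6 libraries (limma adjusted p = 0.0866), -0.31 without fip37-4 LEC1:FIP37 replicate 1 (limma adjusted p = 0.000338) and -0.78 without replicate 3 (limma adjusted p = 0.0456). It also passed after quantile normalization, at -0.88 (limma adjusted p = 0.00684). TCONS_00276318 was at 41.7, 206 and 178 FPKM in fip37-4 LEC1:FIP37 and at 79.7, 121 and 84.4 FPKM in wild-type. Replicate 1 thus lay below all wild-type libraries and replicates 2 and 3 above them. TCONS_00005043 was at 169, 377 and 397 FPKM in fip37-4 LEC1:FIP37 and at 258, 257 and 309.6 FPKM in wild-type, with the same arrangement. Neither passed the test with all libraries (limma adjusted p = 0.746 and 0.837), whereas without replicate 1 both did, with log2 fold changes of 1.03 and 0.50 (limma adjusted p = 0.0316 and 0.00318). Novel_000096, TCONS_00006458 and Novel_000147 averaged 469, 154 and 106 FPKM over the libraries and passed the test neither with nor without replicate 1.

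The low position of fip37-4 LEC1:FIP37 replicate 1 was shared by all 8 transcripts of at least 100 FPKM, a pattern chosen after the values were seen. The ratio of replicate 1 to the mean of replicates 2 and 3 ran from 0.217 to 0.587 among them, with a median of 0.448. Among 627 annotated nuclear loci, with isoforms summed, of at least 100 FPKM the median ratio was 0.933, and 7, or 1.12%, were under 0.6. Replicate 1 was the lowest of the 3 fip37-4 LEC1:FIP37 libraries in 438 of these loci, or 69.9%. Among 78 organelle loci at that level the median ratio was 1.07, and 1 locus was under 0.6. Assembled transcripts at lower levels were centred near an equal level, with medians of 1.04 for the 21 that averaged 20 to 100 FPKM and 0.984 for the 156 under 20 FPKM. Of those, 2 and 9 were under 0.6, or 9.52% and 5.77%, where 0.562% and 0.589% of nuclear loci of the same levels were. At 2 to 20 FPKM the ratio was also high more often, above the inverse of 0.6 in 8 of the 156 and in 15 of 11042 nuclear loci, so both tails held more assembled transcripts. Replicate 1 also held the largest organelle share of the 6 libraries, and the part of that share in this pattern was not tested.

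**Figure D2:**
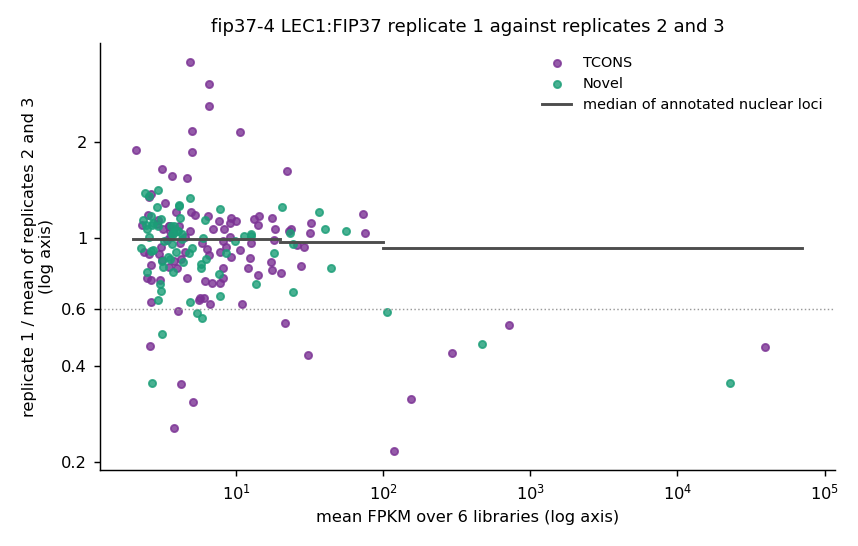
Ratio of fip37-4 LEC1:FIP37 replicate 1 to the mean of replicates 2 and 3 (log axis) against the mean FPKM over 6 libraries (log axis), for 184 assembled transcripts with at least 2 FPKM in both groups; 1 more is listed at 0 in replicates 2 and 3. Dark lines are medians of annotated nuclear loci of the same level, and the dotted line marks 0.6, under which all 8 transcripts of at least 100 FPKM lie.

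Of the 280, 185 averaged at least 2 FPKM in both groups, and for these the rule fixed no direction. Among them 53 were higher in fip37-4 LEC1:FIP37 and 14 were lower at an adjusted p under 0.05, or 28.6% and 7.57%. The same fit called 27.6% of all 19383 features tested higher and 30.9% lower. It called, of 14515 annotated nuclear loci with at least 2 FPKM in both groups, 25.3% higher and 36.5% lower. In either direction the calls made up 36.2% of the 185, beside 58.6% of all features and 61.8% of nuclear loci. The share of higher calls was thus near the background, and the share of lower calls was below it. These backgrounds sum the isoforms of each annotated locus, whereas assembled transcripts are single rows. With each transcript row fitted on its own, 4886 of 23001 rows were called higher and 5783 lower. That fit called 50 of the assembled transcripts with at least 2 FPKM in both groups higher and 12 lower. The groups did not overlap for 81 of the 185, or 43.8%, where they did not for 65.9% of all features and 68.9% of the nuclear loci. Most of the changes were modest, since only 4 of the higher and 6 of the lower transcripts differed by 2-fold or more. With each library left out in turn, 39 of the 53 higher and 10 of the 14 lower calls passed every time. Without fip37-4 LEC1:FIP37 replicate 1 alone, 46 of the 53 and 11 of the 14 passed.

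**Figure D3:**
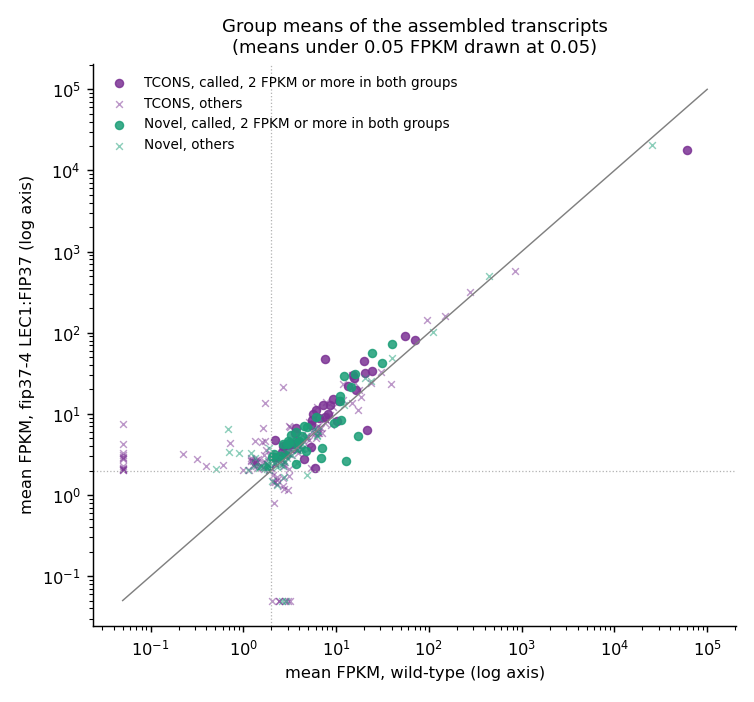
Mean FPKM in fip37-4 LEC1:FIP37 against mean FPKM in wild-type (both log axes) for the 280 assembled transcripts, by prefix. Filled points passed the test and had at least 2 FPKM in both groups, crosses are all others, dotted lines mark 2 FPKM, the diagonal marks equal levels, and 53 filled points lie above the diagonal and 14 below it.

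Both prefixes had more higher than lower calls. Of 111 TCONS_ transcripts with at least 2 FPKM in both groups, 30 were called higher and 6 lower, or 27.0% and 5.41%. The other 75 were not called, and the median log2 fold change was 0.16. Of 74 Novel_ transcripts, 23 were called higher and 8 lower, or 31.1% and 10.8%. The other 43 were not called, and the median was 0.14. Beside 27.6% and 30.9% of all features tested, the higher shares were near the background and the lower shares below it. The median over all features tested was -0.002, and over all nuclear loci with at least 2 FPKM in both groups it was -0.05. The nuclear median depended on level. At 2 to 5 FPKM it was 0.07, beside medians of 0.10 for TCONS_ and 0.12 for Novel_. Nuclear loci of that level also had more higher than lower calls, 995 and 601. At 5 to 20 FPKM the nuclear median was -0.05, with 1945 loci higher and 2725 lower, beside 0.29 for TCONS_ and 0.12 for Novel_. At 20 FPKM and over it was -0.24, with 737 loci higher and 1969 lower, beside 0.39 for TCONS_ and 0.40 for Novel_. The prefixes were not tested against each other. Among the called transcripts, TCONS_ rises ran from 0.20 to 2.58 on the log2 scale and Novel_ rises from 0.21 to 1.21. In medians of log2 fold change, chloroplast and mitochondrial genes with at least 2 FPKM in both groups were at 0.69 and 0.59.

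TCONS_00148663 rose most among the called transcripts with at least 2 FPKM in both groups. It was at 41.3, 56.8 and 44.2 FPKM in fip37-4 LEC1:FIP37, against 9.38, 5.50 and 7.91 FPKM in wild-type. Every fip37-4 LEC1:FIP37 library was above every wild-type library, and the difference was 2.58 ± 0.209 on the log2 scale (SE; limma adjusted p = 0.000137). Novel_000230 was at 33.5, 26.5 and 27.0 FPKM in fip37-4 LEC1:FIP37 and at 13.2, 13.4 and 10.1 FPKM in wild-type. Novel_000232 was tighter, at 58.9, 55.4 and 54.8 FPKM in fip37-4 LEC1:FIP37 and at 23.9, 26.0 and 23.1 FPKM in wild-type. Both rose by a little over 2-fold, by 1.21 ± 0.127 and 1.20 ± 0.057 on the log2 scale (limma adjusted p = 0.000155 and 2.02e-06). TCONS_00318096, which completes the 4 that were at least 2-fold higher and was chosen after its values were seen, averaged 44.5 ± 3.23 FPKM in fip37-4 LEC1:FIP37 and 20.2 ± 1.95 FPKM in wild-type (SD, n = 3 each), a log2 fold change of 1.12.

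Smaller rises also came with little spread between replicates. Novel_000098 was at 74.1, 70.8 and 69.9 FPKM in fip37-4 LEC1:FIP37, against 40.8, 39.1 and 39.4 FPKM in wild-type. Novel_000069 was at 31.5, 32.4 and 28.5 FPKM in fip37-4 LEC1:FIP37, against 16.1, 15.4 and 16.7 FPKM in wild-type. In both the gap between groups was many times the spread within them, and the log2 fold changes were 0.84 ± 0.045 and 0.92 ± 0.060 (limma adjusted p = 3.14e-06 and 7.11e-06). TCONS_00006096 was close to the threshold, with 80.7 ± 2.31 FPKM in fip37-4 LEC1:FIP37 and 70.2 ± 5.18 FPKM in wild-type (SD, n = 3 each). Its log2 fold change of 0.20 (limma adjusted p = 0.0192) no longer passed once wild-type replicate 3 was left out (limma adjusted p = 0.0585) or values were scaled to nuclear loci (limma adjusted p = 0.0723). Novel_000309, at 48.2 ± 5.86 FPKM in fip37-4 LEC1:FIP37 and 40.2 ± 4.16 FPKM in wild-type, did not pass (log2 fold change 0.26, limma adjusted p = 0.0578), but passed without fip37-4 LEC1:FIP37 replicate 1 (limma adjusted p = 0.00451) or replicate 2 of wild-type (adjusted p in limma 0.0252), and after both other scalings (limma adjusted p = 0.00447 and 0.0397).

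Novel_000097, TCONS_00272384 and Novel_000295 were among the transcripts that fell by 2-fold or more. Novel_000097 was at 5.35, 5.29 and 5.24 FPKM in fip37-4 LEC1:FIP37, against 17.2, 16.8 and 18.1 FPKM in wild-type. Its 3 fip37-4 LEC1:FIP37 values were nearly equal, and the difference was -1.63 ± 0.050 on the log2 scale (SE; limma adjusted p = 2.7e-07). TCONS_00272384 was at 6.82, 6.83 and 5.59 FPKM in fip37-4 LEC1:FIP37, against 22.2, 20.8 and 21.6 FPKM in wild-type, a log2 fold change of -1.68 ± 0.077 (limma adjusted p = 1.8e-06). Novel_000295 fell most among the called transcripts with at least 2 FPKM in both groups. It was at 3.04, 2.29 and 2.64 FPKM in fip37-4 LEC1:FIP37, against 12.4, 14.9 and 11.3 FPKM in wild-type, a log2 fold change of -2.08 ± 0.116 (limma adjusted p = 4.27e-06). Replicate 1 was the lowest fip37-4 LEC1:FIP37 library in none of these 3, whereas it was in all of the abundant transcripts. It was also the lowest in 69.9% of nuclear loci of at least 100 FPKM.

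Novel_000160 and Novel_000307 also fell, with replicate 1 lowest in each. Novel_000160 was at 2.03, 3.22 and 3.23 FPKM in fip37-4 LEC1:FIP37 and at 6.34, 8.03 and 6.21 FPKM in wild-type. Novel_000307 was at 2.55, 4.33 and 4.38 FPKM in fip37-4 LEC1:FIP37 and at 7.17, 7.27 and 6.81 FPKM in wild-type. The groups were apart in both, which the rule for naming them required. The log2 fold changes were -1.16 and -0.87 (limma adjusted p = 0.000623 and 0.00401). TCONS_00000598 was less regular. It was at 1.47, 1.40 and 3.57 FPKM in fip37-4 LEC1:FIP37 and at 4.18, 4.94 and 8.73 FPKM in wild-type. Replicate 3 was the highest library of both groups, and the log2 fold change of -1.32 (limma adjusted p = 0.0342) no longer passed when any of 4 libraries was left out, namely replicates 1 and 2 of fip37-4 LEC1:FIP37 and replicates 2 and 3 of wild-type (adjusted p in limma between 0.0538 and 0.152).

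**Figure D4:**
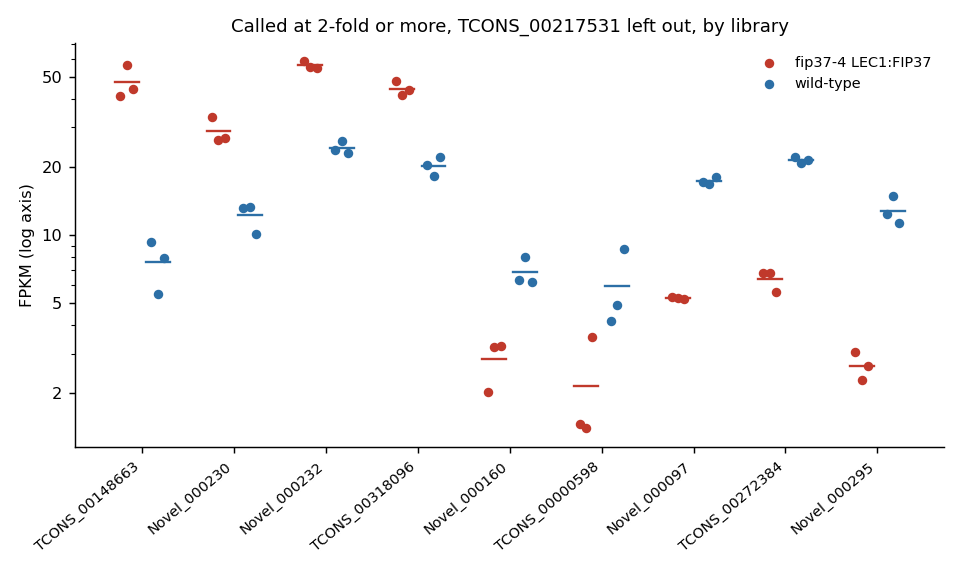
FPKM (log axis) by library of 9 of the 10 assembled transcripts that were called at 2-fold or more with at least 2 FPKM in both groups, with a line at each group mean and fip37-4 LEC1:FIP37 left of wild-type. The 4 on the left are higher and the 5 on the right lower in fip37-4 LEC1:FIP37, and TCONS_00217531 is left out because its level is off this scale.

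A further 71 transcripts reached 2 FPKM only in fip37-4 LEC1:FIP37 and 24 only in wild-type. A difference between the groups was built into their choice, so their values are given without a test. TCONS_00004157 was at 12.8, 13.6 and 14.4 FPKM in fip37-4 LEC1:FIP37, against 1.64, 1.99 and 1.46 FPKM in wild-type. TCONS_00247094 was at 7.05, 6.34 and 6.49 FPKM in fip37-4 LEC1:FIP37, against 1.73, 1.81 and 1.38 FPKM in wild-type. Novel_000180 was at 5.94, 6.87 and 6.54 FPKM in fip37-4 LEC1:FIP37, against 0.879, 0.464 and 0.685 FPKM in wild-type. In these 3 the replicates of fip37-4 LEC1:FIP37 stood close together. Novel_000180 varied more in wild-type, at 0.676 ± 0.207 FPKM (SD, n = 3). TCONS_00247094 was named from called transcripts without overlap, so its groups were apart by choice. TCONS_00161965 was at 4.36, 2.72 and 2.40 FPKM in fip37-4 LEC1:FIP37 and at 0.269, 0.268 and 0.131 FPKM in wild-type. Novel_000178 was at 2.78, 4.62 and 2.77 FPKM in fip37-4 LEC1:FIP37 and at 0.805, 0.847 and 0.443 FPKM in wild-type. Novel_000036 was at 4.45, 3.12 and 2.25 FPKM in fip37-4 LEC1:FIP37 and at 1.26, 1.41 and 0.924 FPKM in wild-type. These 3 were named from called transcripts without overlap, so their groups were apart by choice. They had more spread between the fip37-4 LEC1:FIP37 libraries.

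Novel_000095, TCONS_00163953, Novel_000207 and TCONS_00109662 reached the level only in wild-type. Novel_000095 was at 1.28, 1.53 and 2.42 FPKM in fip37-4 LEC1:FIP37, against 4.81, 4.21 and 5.51 FPKM in wild-type. TCONS_00163953 was at 0.440, 1.03 and 0.938 FPKM in fip37-4 LEC1:FIP37, against 2.38, 2.36 and 1.61 FPKM in wild-type. Novel_000207 averaged 1.31 ± 0.331 FPKM in fip37-4 LEC1:FIP37 and 2.30 ± 0.335 FPKM in wild-type. The groups were apart in all 3, which the rule for naming them required. TCONS_00109662 was at 1.07, 1.82 and 2.01 FPKM in fip37-4 LEC1:FIP37 and at 3.10, 2.79 and 2.09 FPKM in wild-type, so that the nearest libraries of the groups almost met.

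Some transcripts were listed at exactly 0 in part or all of the libraries of a group. TCONS_00030187 was listed at 0 in the 3 fip37-4 LEC1:FIP37 libraries and at 2.28, 3.39 and 2.74 FPKM in wild-type. TCONS_00006327 was at 1.43, 3.07 and 1.72 FPKM in fip37-4 LEC1:FIP37 and listed at 0 in the 3 wild-type libraries. TCONS_00007446 was at 3.33, 4.63 and 5.01 FPKM in fip37-4 LEC1:FIP37 and at 1.59, 0.588 and 0 FPKM in wild-type. TCONS_00030187, TCONS_00006327 and TCONS_00007446 were named from called transcripts without overlap, so their groups were apart by choice. Whether a 0 in these files is a lack of fragments or a failed estimate was not tested. AT4G02970, a gene of the abundant 7SL RNA of the signal recognition particle, was also listed at 0 in all 6 libraries.

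Many of the low transcripts were listed at 0 in some libraries. Of the 280, 46 were listed at 0 in at least 1 library, 42 of them TCONS_ and 4 Novel_, and 29 in at least 3 libraries. The filter of 0.5 FPKM in at least 3 libraries left out 22 of the 280, 20 TCONS_ and 2 Novel_, so that each of these was above 0.5 FPKM in 2 libraries at most. TCONS_00221481 was at 12.8 FPKM in fip37-4 LEC1:FIP37 replicate 2 and listed at 0 in the other 5 libraries. TCONS_00094837 was at 6.43, 0 and 16.0 FPKM in fip37-4 LEC1:FIP37 and TCONS_00215588 at 2.06, 7.93 and 0 FPKM, and both were listed at 0 in wild-type. Novel_000078 and Novel_000128 were listed at 0 in fip37-4 LEC1:FIP37 and at 6.44, 2.17 and 0 FPKM, and 5.30, 2.47 and 0 FPKM, in wild-type. Among these 5 transcripts, every group that held a value also held a 0.

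Low transcripts of different names at times carried the same value to all deposited digits. In wild-type replicate 3, TCONS_00006650, TCONS_00028540 and TCONS_00102599 were all at 6.09 FPKM. In fip37-4 LEC1:FIP37 replicate 2, TCONS_00016129, TCONS_00215747 and TCONS_00281457 were all at 4.10 FPKM. What equal values come from was not tested. Of 60 values above 0 in the 29 transcripts listed at 0 in at least 3 libraries, 14, or 23.3%, recurred in another assembled transcript of the same library. Of 78 values in the 17 transcripts listed at 0 in 1 or 2 libraries, 13, or 16.7%, recurred. Of 1404 values in the 234 transcripts above 0 in all libraries, 8, or 0.57%, recurred. Among transcripts with at least 2 FPKM in both groups, 7 held a 0. TCONS_00098258 was the extreme, at 18.6, 25.8 and 20.1 FPKM in fip37-4 LEC1:FIP37 and at 0, 8.09 and 0 FPKM in wild-type, and it did not pass the test (limma adjusted p = 0.0574); it was chosen after its values were seen.

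By median SD, replicates of assembled transcripts were spread more widely than those of annotated nuclear loci at the same level. The nuclear values are sums over the isoforms of a locus, whereas those of assembled transcripts are single rows. The part of this difference in the spread was not tested. Between 2 and 5 FPKM the median SD of log2(FPKM + 0.5) in fip37-4 LEC1:FIP37 was 0.185 for 49 TCONS_ transcripts and 0.173 for 45 Novel_ transcripts, beside 0.10 for 3536 nuclear loci. In wild-type these SDs were 0.197, 0.130 and 0.086. From 5 to 20 FPKM they were 0.173 for 44 TCONS_, 0.129 for 18 Novel_ and 0.078 for 7505 nuclear loci in fip37-4 LEC1:FIP37, and 0.161, 0.101 and 0.059 in wild-type. At 20 FPKM and over they were 0.230 for 18 TCONS_, 0.185 for 11 Novel_ and 0.072 for 3474 nuclear loci in fip37-4 LEC1:FIP37, and 0.138, 0.081 and 0.043 in wild-type. This level holds the 8 transcripts of at least 100 FPKM in which fip37-4 LEC1:FIP37 replicate 1 was low. The part of that replicate in the spread was not tested. The median absolute log2 fold changes of TCONS_, Novel_ and nuclear loci were 0.18, 0.20 and 0.21 at 2 to 5 FPKM, 0.31, 0.40 and 0.24 at 5 to 20 FPKM, and 0.61, 0.43 and 0.36 at 20 FPKM and over. At 5 to 20 FPKM 36.4% of TCONS_, 61.1% of Novel_ and 62.2% of nuclear loci were called. Between 2 and 5 FPKM the shares were 22.4%, 33.3% and 45.1%, and at 20 FPKM and over 9 of the 18 TCONS_, 45.5% of Novel_ and 77.9% of nuclear loci were called. The share of calls was thus below that of nuclear loci at all 3 levels for TCONS_, and for Novel_ at the lowest and highest, with nearly equal shares between them. The wider spread stood beside these shares, and its part in the number of calls was not tested.

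**Figure D5:**
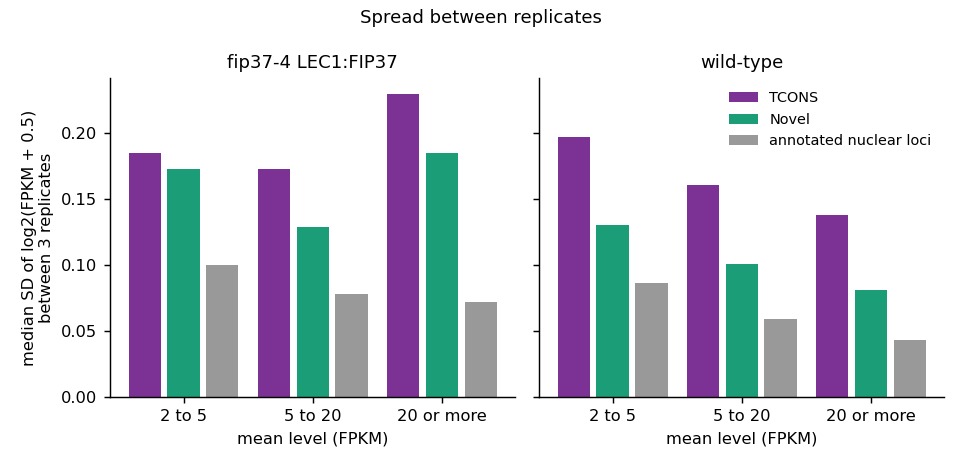
Median SD of log2(FPKM + 0.5) between the 3 replicates, for fip37-4 LEC1:FIP37 and wild-type, in 3 ranges of mean level, for assembled transcripts of both prefixes and annotated nuclear loci with at least 2 FPKM in both groups. The bars of TCONS_ are the highest and those of nuclear loci the lowest in all 6 clusters. Isoforms are summed per nuclear locus, and assembled transcripts are single rows.

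The edge of the choice fell among transcripts of low level, some of them uneven between libraries. Just inside it were TCONS_00147073, TCONS_00166719 and TCONS_00102599, whose higher group averaged 2.007, 2.014 and 2.031 FPKM. TCONS_00147073 reached it through 3.05 and 2.971 FPKM in fip37-4 LEC1:FIP37 replicates 1 and 2, with 0 elsewhere, and TCONS_00102599 through wild-type replicate 3 alone. TCONS_00166719 was more even, at 1.728, 2.04 and 2.274 FPKM in fip37-4 LEC1:FIP37 and at 1.766, 2.414 and 1.695 FPKM in wild-type. Just outside were Novel_000240, TCONS_00275107 and Novel_000225, at 1.978, 1.973 and 1.972 FPKM in fip37-4 LEC1:FIP37 and 0.9885, 1.151 and 1.005 FPKM in wild-type. These 3 were above 0 in all libraries.

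Annotated non-coding RNA genes give little to set beside them. Of 11 such genes looked up, 4 were in the files. AT4 (AT5G03545), an RNA induced by phosphate shortage, fell to 6.45 ± 0.270 FPKM in fip37-4 LEC1:FIP37, against 12.6 ± 1.46 FPKM in wild-type (SD, n = 3 each), a log2 fold change of -0.91 (limma adjusted p = 3.66e-05). Its relative IPS1 (AT3G09922) was at 0.465 ± 0.128 FPKM in fip37-4 LEC1:FIP37 and 0.659 ± 0.244 FPKM in wild-type and did not pass (limma adjusted p = 0.234). APOLO (AT2G34655), which acts at an auxin-regulated locus, was below the filter, at 0.0406, 0.371 and 0.142 FPKM in fip37-4 LEC1:FIP37 and 0.0376, 0.0689 and 0 FPKM in wild-type. The gene of 7SL RNA is given above.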

How the data were processed

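Libraries were strand-specific and made from ribosomal RNA-depleted total RNA, per the labels' protocols. Per the submitters' processing notes, TopHat2 2.0.9, Cufflinks 2.1.1 and the build TAIR10 were used. The deposited values are taken as FPKM of each transcript, a unit inferred from these tools and from the values. The sources used here do not give the assembly and filtering of TCONS_ and Novel_ transcripts, or whether strand was used in counting. Libraries summed to 1160321 to 1350343 FPKM. Depth is known only relatively: from steps in low values, 1 fragment was worth 0.899 to 1.259 times its worth in wild-type replicate 1. Fragment numbers and lengths of the assembled transcripts could not be recovered from these steps, since on 300 annotated transcripts of 2 to 8 FPKM the attempt came within 25% for 2.67%.

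Isoforms were summed per annotated locus, which gave 28141 features. Those that reached 0.5 FPKM in 3 or more libraries were tested on log2(FPKM + 0.5), which understates changes of low transcripts, with limma 3.58.1 in R 4.3.3 (trend, robust empirical Bayes, genotype only) and Benjamini-Hochberg adjustment over all features; calls needed an adjusted p under 0.05. Tables and plots used Python 3.11.15, pandas 2.3.3 and Matplotlib 3.10.9. Alternatives changed pseudocount, filter, scaling, isoform rows, empirical Bayes, the level of choice and the libraries. Members, lists, tests and alternatives were chosen with earlier results of these data known. Named are TCONS_00217531, TCONS_00004157, TCONS_00148663 and Novel_000180; of each prefix the 6 highest, up to 6 called higher and 6 lower with the largest changes and no overlap, and 3 with the largest ratio among those at 2 FPKM in a single group; 3 on each side of the threshold; and annotated lists. Others are said to be chosen after their values were seen.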

Additional observations from a re-analysis of the deposited data

How the results depend on the processing

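The counts of 53 higher and 14 lower transcripts stayed within 1.5 times under 2 other pseudocounts, 2 other filters, 2 other scalings, separate transcript rows and plain empirical Bayes, and ran from 45 to 57 and from 10 to 16 with a library left out. The transcripts behind these counts changed in part, since 42 of the 53 higher and 13 of the 14 lower calls passed under both other scalings. Replicate numbers did not pair the libraries (correlations of deviations -0.028, -0.049 and -0.057), and no library correlated best with its own number; the replicate block gave 58 higher and 14 lower. A level of 1 FPKM in either group gave 122 and 31 among 397 tested. Including transcripts that reach 2 FPKM in a single group, added after the data were seen, gave 83 higher and 21 lower. Both sets hold transcripts that reach the level in a single group, whose direction was fixed by the choice. Their counts are therefore not like those of 53 and 14. The TCONS_ share in fip37-4 LEC1:FIP37 less that in wild-type was -3.76 percentage points, -7.15 with organelle genes left out of the sum and -0.00552 without TCONS_00217531, and the Novel_ share difference ran from -0.852 to -0.191 with a library left out. The TCONS_ median of 0.16 was 0.20 after quantile normalization, and 0.14 to 0.20 with a library left out. Signs turned only in uncalled transcripts: after quantile normalization Novel_000147 was at 0.13 and TCONS_00006458 at 0.21; with a library left out, log2 fold changes ran for Novel_000096 from -0.12 to 0.45, for Novel_000147 from -0.35 to 0.07, for Novel_000265 from -0.78 to 0.02, for TCONS_00005043 from -0.12 to 0.50, for TCONS_00006458 from -0.32 to 0.51 and for TCONS_00276318 from -0.11 to 1.03; the cause was not tested beyond the libraries named. Over the named transcripts and the alternatives tried, 464 values kept direction and call, 14 lost a call and 10 gained one. The depth behind single values is unknown.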

Other observations

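Below the level of 2 FPKM lay 487 further assembled transcripts, of which 284 passed the filter. Among them 61, or 21.5%, were higher in fip37-4 LEC1:FIP37 and 19, or 6.69%, were lower (limma, adjusted p under 0.05), beside 27.6% and 30.9% of all features tested, and their median log2 fold change was 0.17.

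In few abundant annotated genes was fip37-4 LEC1:FIP37 replicate 1 under 0.6 of the mean of replicates 2 and 3. Replicate 1 was the lowest of the 3 in 438 of 627 nuclear loci of at least 100 FPKM, or 69.9%. Of nuclear and organelle loci averaging at least 100 FPKM in which that replicate was under 0.6 of the mean of replicates 2 and 3, AT3G63052 was at 1645, 5217 and 5501 FPKM in fip37-4 LEC1:FIP37 and at 2564, 2606 and 2298 FPKM in wild-type. AT2G31141 was at 1686, 3206 and 3556 FPKM in fip37-4 LEC1:FIP37 and at 3059, 3773 and 3013 FPKM in wild-type. The chloroplast locus ATCG00330 was at 12461, 22676 and 22841 FPKM in fip37-4 LEC1:FIP37 and at 16766, 15796 and 17879 FPKM in wild-type. These were chosen after their values were seen, and the ratio was not tested.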
